A study of Homo sapiens with 6 samples.

Results

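The genes described here carry out heme breakdown, iron storage in ferritin and iron transport across membranes. They are 10 genes chosen by symbol (HMOX1, HMOX2, BLVRA, BLVRB, FTL, FTH1, TFRC, SLC40A1, SLC11A2 and STEAP3) of 58825 in the deposited table, and each symbol matched 1 row. Poly(A) RNA was sequenced from PANC-1, a human cell line derived from a carcinoma of the pancreatic duct. The treated group held 3 libraries of cells given CMR, a compound named only by this code, at 8 µM for 48 h. The other group held 3 control libraries of the same line. The labels state neither what the control cells received nor if the replicates were grown separately, so each p-value reflects only library-to-library spread, which may be technical.

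Heme oxygenases open the heme ring and release iron, carbon monoxide and biliverdin, which the biliverdin reductases turn into bilirubin. Free iron is stored inside ferritin, a hollow shell built of light (FTL) and heavy (FTH1) chains. Cells take up transferrin-bound iron through the transferrin receptor (TFRC), reduce it in endosomes (STEAP3), move it into the cytosol (SLC11A2) and export it through ferroportin (SLC40A1). Iron-regulatory proteins bind a hairpin, the iron-responsive element, in several of these mRNAs when iron is scarce, which blocks translation of ferritin and stabilises the transferrin receptor mRNA.

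Total counts ran from 66460535 to 70129221 in the CMR libraries and from 51147268 to 63811430 in the control libraries. Every CMR library was thus deeper than every control library, which bears on values given as raw counts. Differences between libraries are given as normalised CPM (counts scaled to library size with TMM factors), and levels of different genes are compared as FPKM, which is scaled to gene length. The 7 epithelial and PANC-1 markers (keratins, EPCAM, VIM and SOX9) were all detected, with a summed level of 1248 to 1346 FPKM in control and 341 to 551 FPKM with CMR. Of these 5 were called lower and 0 higher, where all tested genes gave 18.1% lower and 20.5% higher. The part of these markers in the differences described here was not tested. Protocol text in the labels also names an adipose source. Markers of adipocytes, erythroid cells, leukocytes, hepatocytes and pancreatic acinar or islet cells summed to at most 0.759 FPKM per list in any library, and LEP, HBB, CPA1, INS and GCG were among those with no count. PRSS1, of the acinar list, was the only gene of these 5 lists called higher, with 17, 15 and 14 counts in the CMR libraries and 0 in each control library. In bulk RNA, fewer cells of a type and less RNA per cell cannot be told apart.

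CMR-treated cells held more mRNA for the inducible heme oxygenase HMOX1, for both ferritin chains and for biliverdin reductase B (BLVRB). They held less mRNA for biliverdin reductase A (BLVRA) and for the endosomal ferrireductase STEAP3. HMOX1 was 13.2-fold higher, FTL 3.63-fold, FTH1 3.45-fold and BLVRB 2.61-fold higher, while STEAP3 was 2.08-fold and BLVRA 1.55-fold lower. No change was called in HMOX2, TFRC or SLC11A2, and SLC40A1 had too few counts to be tested. At a Benjamini-Hochberg adjusted p under 0.05 (edgeR, quasi-likelihood), 4 of the 9 tested members were higher and 2 lower. Across all 19200 tested genes 38.6% were called, 20.5% higher and 18.1% lower, so the members' calls stand against a broad response. Among the 9 tested members, the same 6 had groups that did not overlap in normalised CPM, as in 53.9% of all tested genes. Genome-wide there were 3928 higher and 3476 lower calls. Upper-quartile scaling gave 3250 and 4324, with a shift of -0.13 in the log2 fold change of the median gene. The 6 members called were called in the same direction under all 17 alternatives to the fit.

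**Figure D1:**
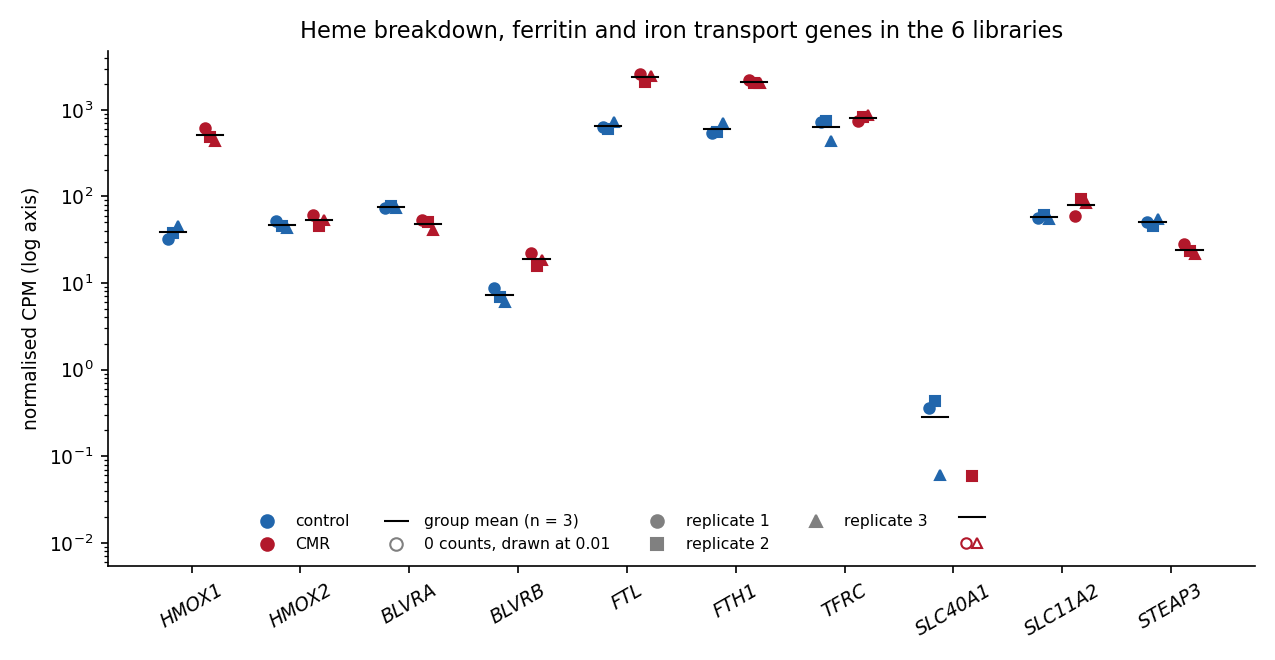
Normalised CPM (log axis) of the 10 genes in each of the 6 libraries, control in blue and CMR in red, with a bar at each group mean and a marker shape for each replicate number. HMOX1, BLVRB, FTL and FTH1 lie above control in every CMR library, BLVRA and STEAP3 below, and 2 CMR libraries had no SLC40A1 count.

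In control cells the order of levels, from the group means in FPKM, was FTL (648), FTH1 (259), TFRC (69.8), BLVRA (35.6), HMOX1 (14.5), HMOX2 (11.9), STEAP3 (9.56), SLC11A2 (4.87) and BLVRB (3.67). HMOX1 and HMOX2 were neighbours whose control libraries overlapped in FPKM. With CMR the order was FTL (2231), FTH1 (848), HMOX1 (183), TFRC (84.4), BLVRA (21.8), HMOX2 (12.9), BLVRB (9.13), SLC11A2 (6.31) and STEAP3 (4.35). SLC40A1 came last in both, with at most 0.0850 FPKM in any library. The neighbours HMOX2 and BLVRB, and SLC11A2 and STEAP3, overlapped in FPKM across the CMR libraries. HMOX1 moved above TFRC and BLVRA in this order. Among all 58825 genes of the table, FTL ranked 31 by mean FPKM in control and 11 with CMR, FTH1 ranked 83 and 25, and HMOX1 2726 and 106.

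HMOX1 encodes the stress-inducible heme oxygenase (ENSG00000100292, chromosome 22, 35380361 to 35390293, plus strand, GRCh38). Its level was 612, 487 and 440 normalised CPM in CMR replicates 1, 2 and 3, and 32.4, 38.3 and 45.5 in control replicates 1, 2 and 3. Every CMR library lay above every control library. The log2 fold change was 3.73 ± 0.18 (SE; 95% interval 3.30 to 4.15; edgeR adjusted p = 4.86e-05). Of all tested genes, 1.14% had a larger absolute log2 fold change.

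HMOX2 encodes the constitutive heme oxygenase (chromosome 16, 4474690 to 4510346, plus strand). Its level was 61.1, 45.3 and 53.3 normalised CPM in the CMR libraries and 51.4, 45.2 and 42.9 in the control libraries. These ranges overlapped, and the log2 fold change of 0.19 ± 0.14 was not called (95% interval -0.13 to 0.52; edgeR adjusted p = 0.314). The upper end of the interval is a 1.43-fold rise, and the interval covers only the spread between libraries. The span of HMOX2 shares 21074 bases with that of NMRAL1 on the other strand, whose mean count was 49.0% of that of HMOX2 and whose log2 fold change was -0.29 ± 0.15 (edgeR adjusted p = 0.174). The strandedness of the counting is not stated, so reads from the shared bases cannot be assigned to either gene here.

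Within a library, the ratio of HMOX1 to HMOX2 uses no scaling between libraries. The ratio of their FPKM was 14.7, 15.8 and 12.1 in the CMR libraries and 0.927, 1.24 and 1.56 in the control libraries. HMOX1 made up 92.4 to 94.1% of the summed FPKM of both genes with CMR and 48.1 to 61.0% in control. The ratio was 11.6-fold higher with CMR (exact permutation p = 0.1, two-sided, the smallest that 3 against 3 libraries allow).

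The biliverdin reductases went in opposite directions. BLVRA, the main reductase of the adult form of biliverdin (chromosome 7, 43758680 to 43807342, plus strand), was at 53.7, 50.4 and 41.3 normalised CPM with CMR and at 74.2, 78.2 and 73.4 in control. Each CMR library was below each control library, with a log2 fold change of -0.63 ± 0.12 (95% interval -0.91 to -0.36; edgeR adjusted p = 0.00528). BLVRB, which also reduces flavins with NADPH (chromosome 19, 40447765 to 40465764, minus strand), was at 22.2, 15.9 and 18.5 with CMR and at 8.70, 6.92 and 6.06 in control. Here each CMR library was above each control library, with a log2 fold change of 1.38 ± 0.20 (95% interval 0.92 to 1.85; edgeR adjusted p = 0.00166).

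BLVRA remained the more abundant of the pair per length in all 6 libraries. The FPKM ratio of BLVRB to BLVRA was 0.445, 0.340 and 0.483 with CMR and 0.126, 0.0949 and 0.0884 in control. It was 4.10-fold higher with CMR, with no overlap between groups (exact permutation p = 0.1, two-sided, the smallest that 3 against 3 libraries allow). This ratio was chosen after the values were seen.

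Both ferritin chains rose by nearly the same factor. FTL, the light chain that helps the iron core form (chromosome 19, 48965309 to 48966879, plus strand), was at 2581, 2086 and 2457 normalised CPM with CMR and at 631, 603 and 728 in control. FTH1, the heavy chain, which oxidises ferrous iron (chromosome 11, 61959718 to 61967634, minus strand), was at 2187, 2025 and 2019 with CMR and at 540, 561 and 706 in control. For both genes the lowest CMR library was far above the highest control library, and control replicate 3 was the highest control. The log2 fold change was 1.86 ± 0.11 for FTL (95% interval 1.60 to 2.12; edgeR adjusted p = 7.59e-05). It was 1.79 ± 0.11 for FTH1 (95% interval 1.52 to 2.05; edgeR adjusted p = 9.03e-05). The 2 genes took 0.399 to 0.474% of all counts in the CMR libraries and 0.119 to 0.147% in control. FTH1 shares 4744 bases with BEST1 on the other strand, whose mean count was 1.25% of that of FTH1 and which was also called higher (log2 fold change 1.81 ± 0.17).

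The ratio between the chains overlapped between the groups. The FPKM ratio of FTL to FTH1 was 2.72, 2.37 and 2.80 with CMR and 2.69, 2.47 and 2.37 in control. The mean ratio differed by 1.05-fold (exact permutation p = 0.6, two-sided). FTL held 70.3 to 73.7% of the summed ferritin FPKM with CMR and 70.4 to 72.9% in control. The share concerns mRNA per length, and no protein was measured.

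Ferritin genes have many processed copies in the genome whose reads can be confused with theirs. The table holds 25 rows named as FTH1 pseudogenes and 16 named as FTL pseudogenes. Their counts summed to 1.77 to 2.69% of those of FTH1 and to 0.0419 to 0.0939% of those of FTL. Of the 9 FTH1 copies tested 8 were higher with CMR, where all tested genes gave 20.5% higher. The copy with the most counts was FTH1P2 (log2 fold change 1.61 ± 0.18, edgeR adjusted p = 0.000607). The only FTL copy tested, FTLP3, was also higher (log2 fold change 1.95 ± 0.42, edgeR adjusted p = 0.00921). How reads that match both a gene and its copies were counted is not stated, so values of the copies are uncertain. A change of the copies cannot be told apart here from reads of FTL and FTH1.

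**Figure D2:**
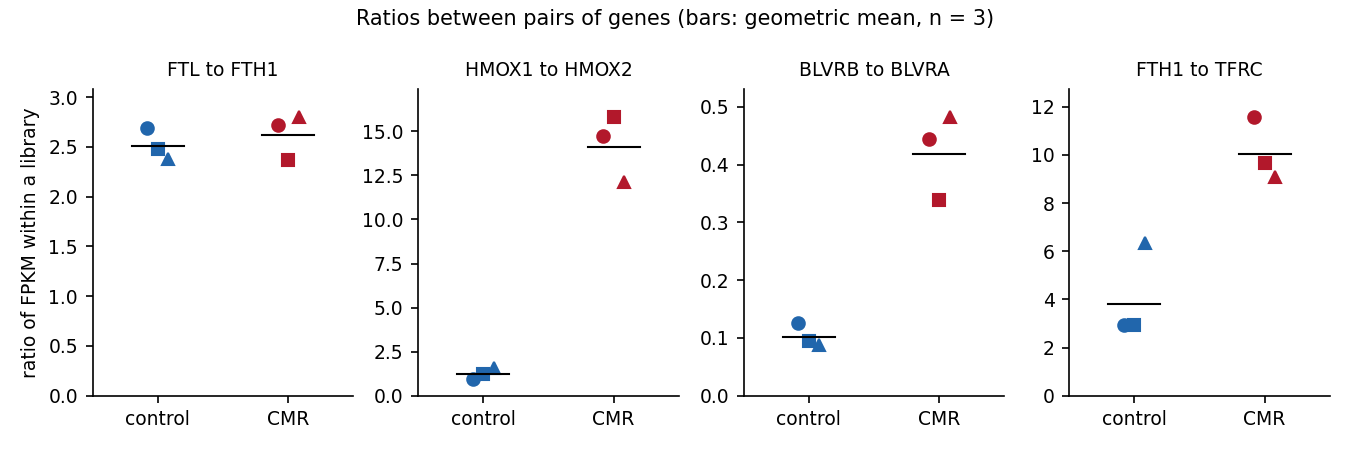
Ratios of FPKM between pairs of genes within each library, on linear axes that start at 0, control in blue and CMR in red, with a bar at the geometric mean of 3 libraries. The FTL to FTH1 ratio overlaps between groups, while the other ratios are higher in each CMR library than in each control library.

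The iron-responsive element was looked for in the transcripts, because it is what the ferritin, ferroportin and transferrin receptor mRNAs have in common as targets of the iron-regulatory proteins. The pattern searched was a C, any 5 bases, the loop CAGTGN, and 5 bases that pair with the first 5, G-T pairs allowed, on the transcript strand only. It was found in the 5′ UTR of FTL, FTH1 and SLC40A1, once each, and at 4 places in the 3′ UTR of TFRC. Each site is printed 5′ to 3′ with 6 further bases on either side, and capitals mark the 6-base loop. Sequences and coordinates are from GENCODE release 29 on GRCh38.
FTL 5′ UTR, chr19:48965335-48965363, plus strand: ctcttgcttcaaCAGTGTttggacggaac
FTH1 5′ UTR, chr11:61967574-61967602, minus strand: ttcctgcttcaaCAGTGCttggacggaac
SLC40A1 5′ UTR, chr2:189580661-189580689, minus strand: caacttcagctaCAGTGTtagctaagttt
TFRC 3′ UTR, chr3:196050979-196051007, minus strand: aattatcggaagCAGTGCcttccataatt
TFRC 3′ UTR, chr3:196050575-196050603, minus strand: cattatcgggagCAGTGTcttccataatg
TFRC 3′ UTR, chr3:196050510-196050538, minus strand: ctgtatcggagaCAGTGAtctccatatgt
TFRC 3′ UTR, chr3:196050463-196050491, minus strand: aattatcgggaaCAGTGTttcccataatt

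The windows of FTL and FTH1 differed at 3 of 29 bases, and that of SLC40A1 differed from FTL at 15. The same pattern occurred in the 5′ UTR of 31 of 18781 protein-coding genes (0.165%) and in the 3′ UTR of 128 of 19103 (0.67%), where longer UTRs give more chance matches. Of the 31 genes with a 5′ match 25 were tested, of which 7 (28%) were higher and 5 (20%) lower with CMR, where all tested genes gave 20.5% and 18.1%. FTL and FTH1 were among the 7. Of the 128 genes with a 3′ match, TFRC included, 112 were tested, of which 38 (33.9%) were higher and 19 (16.96%) lower. The search covered protein-coding genes only, while the shares over all tested genes also take in others, such as pseudogenes. The pattern was not found in the other 6 members, which says only that these letters are not in the protein-coding transcripts of the basic GENCODE set. An element whose bases pair differently would be missed. The search therefore does not show that any of these members, SLC11A2 among them, lacks an iron-responsive element.

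TFRC, the gene with the 3′ sites printed above, brings transferrin into the cell (chromosome 3, 196027183 to 196082096, minus strand). Its level was 735, 816 and 866 normalised CPM with CMR and 720, 738 and 433 in control. The groups overlapped, since CMR replicate 1 lay below control replicate 2, and control replicate 3 stood far below the other control libraries. The log2 fold change of 0.35 ± 0.20 was not called (95% interval -0.11 to 0.82; edgeR adjusted p = 0.204). Without control replicate 3 it was 0.14 ± 0.10 (edgeR adjusted p = 0.327).

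Ferritin and transferrin receptor mRNA were also set against each other within libraries. The FPKM ratio of FTH1 to TFRC was 11.6, 9.65 and 9.07 with CMR and 2.92, 2.95 and 6.34 in control. It was 2.65-fold higher with CMR, without overlap between groups (exact permutation p = 0.1, two-sided, the smallest that 3 against 3 libraries allow). Control replicate 3, the library with the least TFRC, had the highest control ratio. This ratio too was chosen after the values were seen.

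STEAP3, which reduces ferric iron in the endosome (chromosome 2, 119223831 to 119265652, plus strand), was at 28.3, 23.1 and 21.4 normalised CPM with CMR and at 50.7, 45.9 and 55.2 in control. All CMR libraries were below all control libraries. The log2 fold change was -1.06 ± 0.14 (95% interval -1.39 to -0.73; edgeR adjusted p = 0.00132). STEAP3 shares 4650 bases with STEAP3-AS1 on the other strand, whose mean count was 2.51% of that of STEAP3. STEAP3-AS1 was lower too (log2 fold change -0.90 ± 0.28, edgeR adjusted p = 0.0424), but reads from the shared bases cannot be assigned to either gene here. SLC11A2, the ferrous iron transporter DMT1 (chromosome 12, 50979401 to 51028566, minus strand), was at 59.7, 92.5 and 83.7 with CMR and at 57.0, 60.5 and 54.8 in control. CMR replicate 1 fell inside the control range and the other 2 CMR libraries above it. Its log2 fold change of 0.45 ± 0.16 was not called (95% interval 0.07 to 0.84; edgeR adjusted p = 0.0650, from 0.00384 to 0.194 over the alternatives). It was called without CMR replicate 1 (log2 fold change 0.61, edgeR adjusted p = 0.00384) and by DESeq2 (adjusted p = 0.0368).

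SLC40A1, which encodes ferroportin, the iron exporter of the cell (chromosome 2, 189560579 to 189583758, minus strand), was close to absent in both groups. It had 0, 4 and 0 counts in the CMR libraries and 19, 23 and 4 in the control libraries. Control replicate 3 and CMR replicate 2 both had 4 counts, so the raw counts met. In normalised CPM these 2 libraries were at 0.061 and 0.059, so on that scale the groups just missed each other. SLC40A1 did not pass the filter on low counts. With every gene that had a count included, its log2 fold change was -3.72 ± 1.49 and not called (edgeR adjusted p = 0.131). It was called lower without CMR replicate 2, where the CMR libraries left were both at 0 (edgeR adjusted p = 0.0461, from 0.0461 to 0.175 over the alternatives in which it was tested).

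**Figure D3:**
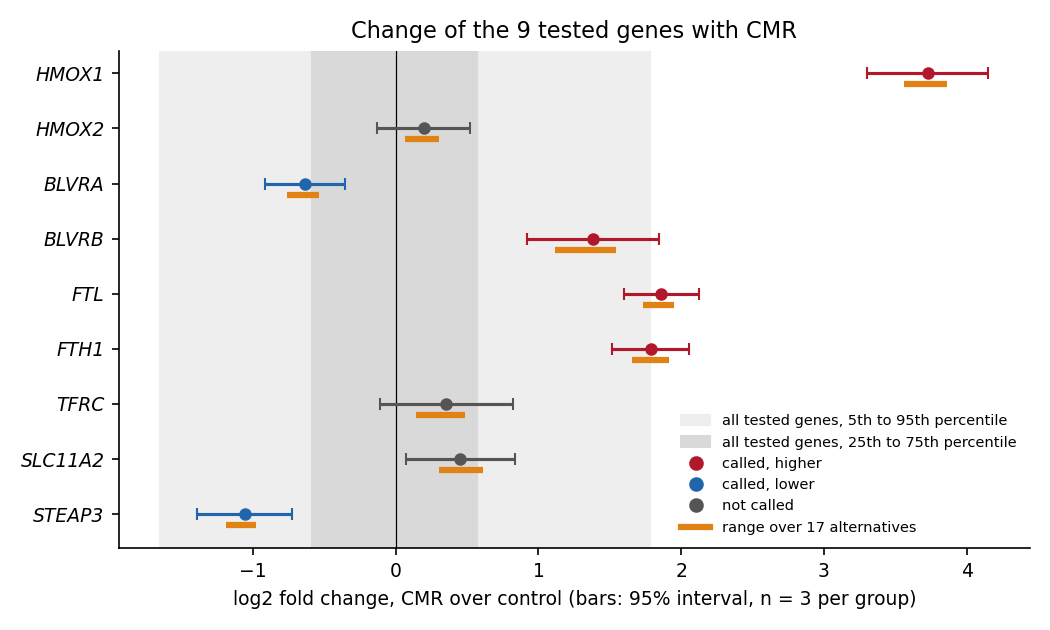
Log2 fold change of CMR over control for the 9 tested genes with the 95% interval of the edgeR fit (3 libraries per group), and in orange the range over 17 alternatives. Grey bands give the 25th to 75th and the 5th to 95th percentile of all 19200 tested genes. HMOX1, FTL and FTH1 lie above the 95th percentile of 1.78, BLVRB and STEAP3 between the inner and outer band edges, BLVRA just below the inner band, and HMOX2, TFRC and SLC11A2 within the inner band.

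The genes whose profile over the 6 libraries was most like that of HMOX1 were named by the root mean square difference of centred log2 CPM, over the 9542 tested genes that averaged 10 CPM or more. They were LAMP3, a lysosomal membrane protein gene (difference 0.17), CHAC1, which degrades glutathione (0.18), HSPA5, the main chaperone of the endoplasmic reticulum (0.21), OSGIN1, an oxidative stress response gene (0.24), and NUPR1, a stress-induced regulator (0.25). Their log2 fold changes ran from 3.40 for NUPR1 to 3.75 for LAMP3. The 6 libraries form only 2 groups, so this likeness rests largely on the size of the difference between groups.

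Promoter windows from RefSeq (GRCh38.p14, 250 bases before to 50 after the start) were found for 8 of the 10 members. The core of the antioxidant response element, TGACNNNGC, was searched on both strands and was in none of the 8, against 13.3% of all 35116 windows. The C/EBP-ATF element TGATGNAA was in 1, that of SLC11A2, against 3.62% of all windows. With only 8 windows, these shares say little about the members as a group. More distant enhancers were not searched.

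The other genes of heme and iron handling were taken from 8 lists with 105 entries, of which 94 were tested. Of these 19 were higher and 22 lower with CMR. Of all tested genes 20.5% were higher and 18.1% lower. The median log2 fold change was 0.03 in the lists and -0.01 over all tested genes. With upper-quartile scaling 17 list genes were higher and 29 lower. The lower count ranged from 9 without control replicate 3 to 25 without CMR replicate 1. It was 10 without control replicate 2, 11 without CMR replicate 2 and 12 without control replicate 1. Over all genes, lower calls also varied with the library left out, from 2506 to 3734, against 3476 in the main fit.

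Heme synthesis genes were higher in 5 and lower in 2 of 12 tested, with a median log2 fold change of 0.42. SLC25A38, which brings glycine into mitochondria for the first step, rose from 26.3 ± 1.81 to 70.1 ± 6.21 normalised CPM (mean ± SD of 3 libraries), a log2 change of 1.41 ± 0.11 (edgeR adjusted p = 0.000192). FECH, which inserts iron into the porphyrin ring, rose 1.84-fold. CPOX, the coproporphyrinogen oxidase, fell from 18.4 ± 1.87 to 9.20 ± 2.23 normalised CPM (mean ± SD of 3 libraries). ABCB10, a mitochondrial transporter gene, was 1.71-fold lower.

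Heme transport and binding genes were higher in 2 and lower in 2 of 12, with a median of 0.09. ABCB6, a porphyrin transporter gene, rose from 10.2 ± 1.22 to 24.0 ± 0.839 normalised CPM (mean ± SD of 3 libraries), a log2 change of 1.24 ± 0.14 (edgeR adjusted p = 0.000607). SLC46A1, a folate transporter gene that can also carry heme, rose 1.98-fold. ABCC1 was 1.56-fold lower and ABCG2, an exporter that accepts porphyrins, 1.37-fold lower. The call of ABCG2 was lost without control replicate 1 (edgeR adjusted p = 0.0599), 2 (0.0736) or 3 (0.102).

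Iron uptake, reduction and release genes outside the members were higher in 2 and lower in 4 of 14, with a median of -0.27. LCN2, a secreted lipocalin that binds iron-carrying siderophores, had 389, 303 and 449 counts with CMR and 15, 0 and 0 in control. All CMR libraries were far above control (log2 fold change 5.94 ± 1.09, edgeR adjusted p = 0.00476). The size of that change rested on control replicate 1, without which it was 11.51, a value set by the prior count since the control libraries left had no counts. On log2(FPKM + 1) it was 1.89, a scale that understates changes of low genes. MCOLN1, a lysosomal channel gene, rose 1.91-fold. The 4 lower genes, STEAP2, SLC39A8, SLC39A4 and MELTF, averaged under 1 FPKM in both groups.

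Cytosolic iron chaperones and ferritin turnover genes were higher in 1 and lower in 2 of 8. NCOA4, the receptor that delivers ferritin to the lysosome, averaged 286 ± 15.4 normalised CPM with CMR and 277 ± 17.4 in control (SD, n = 3) with a log2 change of 0.04 ± 0.08 that was not called (edgeR adjusted p = 0.710). PCBP1, an iron chaperone that loads ferritin, had a log2 change of 0.08 ± 0.07, also not called (edgeR adjusted p = 0.405). PCBP4 was 1.86-fold and PCBP2 1.17-fold lower, and the glutaredoxin gene GLRX3 1.24-fold higher. The PCBP2 call (edgeR adjusted p = 0.0471) was lost in 10 of 16 alternatives, among them each removal of 1 library (adjusted p from 0.0507 to 0.168).

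Iron-regulatory proteins and sensors were lower in 1 and higher in 0 of 7. ACO1 and IREB2, the genes of both iron-regulatory proteins, were at 92.2 ± 2.18 and 113 ± 14.5 normalised CPM with CMR and at 89.8 ± 3.61 and 111 ± 3.17 in control (SD, n = 3). Their log2 changes of 0.04 ± 0.08 and 0.02 ± 0.11 were not called (edgeR adjusted p = 0.733 and 0.884), and the sign of both, as of NCOA4 and PCBP1, turned with upper-quartile scaling. FBXL5, the iron-sensing subunit that marks IREB2 protein for degradation, had a log2 change of -0.25 ± 0.11 that was not called (edgeR adjusted p = 0.116, from 0.0345 to 0.277 over the alternatives). CISD3, a mitochondrial iron-sulfur protein gene, was 2.12-fold lower. Its call (edgeR adjusted p = 0.0214) was lost without control replicate 1 (0.0528), 2 (0.0570) or 3 (0.0625) or CMR replicate 2 (0.0662).

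The hepcidin and HFE list was higher in 2 and lower in 1 of 8. HFE, a partner of the transferrin receptor, fell from 7.97 ± 2.33 to 1.97 ± 0.785 normalised CPM (mean ± SD of 3 libraries), a log2 change of -2.01 ± 0.37 (edgeR adjusted p = 0.00469). On log2(FPKM + 1) the change of HFE was -0.78. SMAD4 was 2.58-fold and BMP6 1.65-fold higher. HAMP, the gene of hepcidin itself, had 0 counts in all 6 libraries and was not tested.

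Mitochondrial iron import and iron-sulfur assembly genes were higher in 5 and lower in 4 of 19, with a median of 0.18. ISCU, the scaffold on which clusters are built, rose from 64.1 ± 4.85 to 177 ± 11.3 normalised CPM (mean ± SD of 3 libraries), a log2 change of 1.47 ± 0.10 (edgeR adjusted p = 9.75e-05). ISCA1, a later assembly factor, rose 2.35-fold, the mitochondrial chaperone HSPA9 2.23-fold and the iron importer SLC25A28 1.72-fold. Transferrin receptor trafficking genes were higher in 2 and lower in 6 of 14, with a median of -0.24. CLTC, the clathrin heavy chain, was 1.82-fold higher, while AP2B1, an adaptor subunit, was 1.51-fold and EXOC6 1.55-fold lower. CLTB, a clathrin light chain, was 1.93-fold lower (edgeR adjusted p = 0.0328). That call was lost without CMR replicate 2 (0.106) or 3 (0.0959) and without control replicate 2 (0.0695) or 3 (0.106). EXOC6 lost its call (edgeR adjusted p = 0.0155) without control replicate 2 (0.0544) or 3 (0.0564), and GLRX3 (0.0193) without control replicate 2 (0.0576) or 3 (0.0705) and with upper-quartile scaling (0.114).

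**Figure D4:**
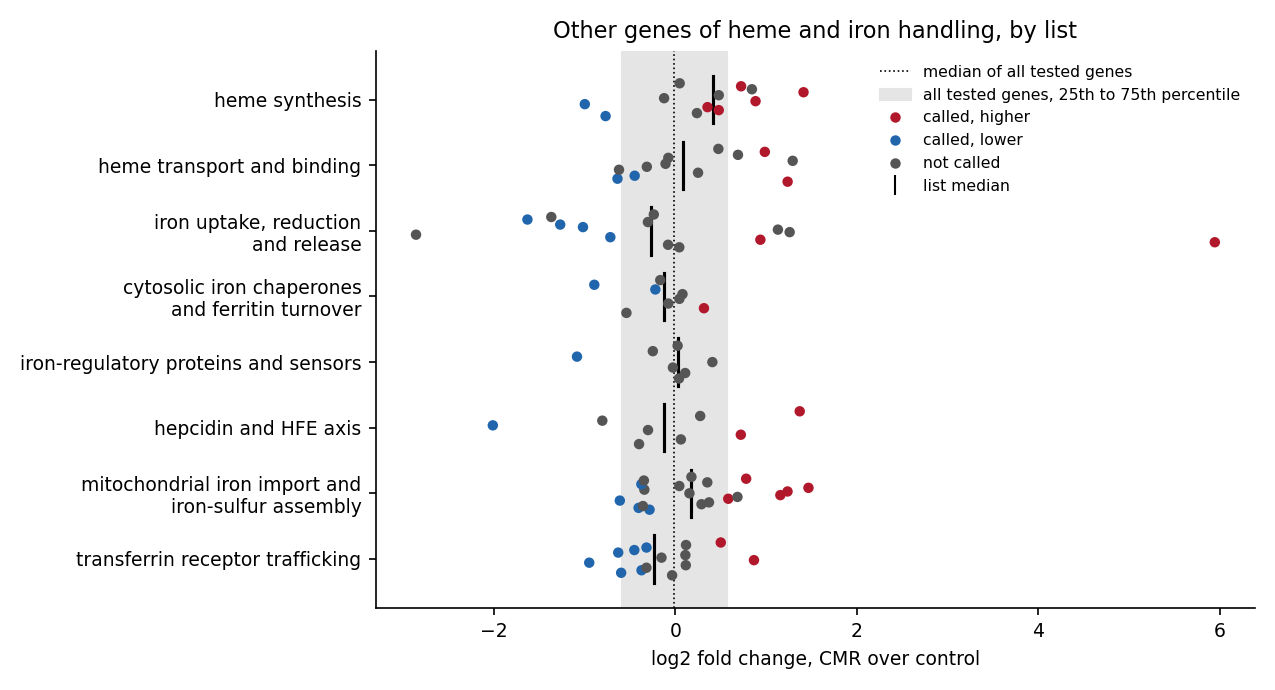
Log2 fold change of CMR over control for the tested genes of 8 lists of heme and iron handling, coloured by call, with a black bar at each list's median, the median of all tested genes as a dotted line and their 25th to 75th percentile in grey. List medians run from -0.27 to 0.42, and LCN2 stands at 5.94.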

How the data were processed

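Each gene and library of the deposited table has 2 values, which the file headers name count and FPKM. Count columns as deposited by the authors are whole and not normalized; the sources used here do not say whether reads or fragments were counted, nor the strand setting. FPKM columns, per the file headers the authors' values per length and library, list a gene without counts at 0.0001. Bowtie 0.12.2, HISAT2 2.0, StringTie 1.3.0 and the mouse build mm8 appear, without roles, in the submitters' processing notes. The identifiers are human, and 81.2% of 58597 genes had the coordinates of GENCODE release 29, 4 of the 10 members among them, so positions were read as GRCh38.

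Counts of all genes were fitted with edgeR 4.0.16 (R 4.3.3): TMM factors, filterByExpr (minimum count 10, total 15), quasi-likelihood test, Benjamini-Hochberg adjustment over 19200 genes, calls at 0.05. SE is the log2 fold change over the root of F. With 3 libraries per group, library totals and this spread limit precision. Alternatives were median-of-ratios, upper-quartile and no composition scaling, 2 other filters, DESeq2 1.42.0, limma 3.58.1 on counts (voom) and on log2(FPKM + 1) or log2(FPKM + 0.1), a replicate block, added pseudogene counts and removal of each library. The functions were tested on simulated data. Ratios used FPKM and exact permutation tests. Counts of every pair of libraries differed beyond sampling noise.

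Members and lists were chosen with earlier results of these data known. All members were named. Of each list up to 4 called genes were named, those with the largest change and a mean of at least 1 FPKM in a group, with ACO1, IREB2, FBXL5, NCOA4, PCBP1 and PCBP2 irrespective of result. Other names (HAMP, STEAP2, SLC39A8, SLC39A4, MELTF) were chosen after values were seen. The 5 genes most like HMOX1 came from a rule. Figures used matplotlib 3.10.9.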

Additional observations from a re-analysis of the deposited data

How the results depend on the processing

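Of 17 alternatives to the fit, 14 gave every member its main call. The exceptions were DESeq2 and the fit without CMR replicate 1, each with 5 members higher through SLC11A2, and the fit without CMR replicate 2, with 3 lower through SLC40A1. Pathway genes called lower, 22 in all, ranged from 9 to 25 when 1 library was left out, and from 15 with the replicate block to 29 with upper-quartile scaling over the other alternatives. Lower calls over all genes, 3476 in the main fit, ranged from 2506 to 3734 when 1 library was left out. Signs changed only among genes that were not called. With upper-quartile scaling the log2 fold changes were -0.090 for ACO1, -0.11 for IREB2, -0.086 for NCOA4 and -0.052 for PCBP1. With library totals alone they were -0.033 for ACO1, -0.050 for IREB2 and -0.029 for NCOA4. On log2(FPKM + 1) they were -0.034, -0.054 and -0.033, and on log2(FPKM + 0.1) -0.037, -0.060 and -0.033, in the same order. IREB2 ranged from -0.048 to 0.12 when 1 library was left out, with -0.014 without CMR replicate 3, and the cause was not tested.

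Same-numbered libraries share only a number in the labels. Their deviations from the group means correlated with r of 0.06 to 0.07, and all 6 libraries correlated best with their own number. Deviations within a group cancel out, so these matches depend on each other and do not show that libraries were paired. The replicate block gave 4 members higher and 2 lower, pathway genes 20 higher and 15 lower, and 6737 genes called in place of 7404. The calls of ABCG2 (edgeR adjusted p = 0.0631), CLTB (0.0607) and PCBP2 (0.0780) were lost with the block. The mean of paired differences equals the difference of the group means by arithmetic, so pairing could not alter these ratios. That mean was 0.06 for FTL to FTH1 and 3.54 for HMOX1 to HMOX2 (log2). At this depth ferroportin, with at most 23 counts in a library, is the member for which a change could not be measured with any precision.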
